A study of Mus musculus with 4 samples.

Results

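The WNT receptor complex and its target genes were examined through 10 genes, picked by name for their role in the pathway: the co-receptor genes *Adgra2* and *Reck*, the receptor genes *Fzd4*, *Lrp5* and *Lrp6*, the transducer *Ctnnb1* and the target genes *Lef1*, *Axin2*, *Apcdd1* and *Sox17*. They are 10 of the 32285 mouse genes in the deposited counts, and each was counted in endothelial cells and pericytes of hyaloid blood vessels. Secreted WNT proteins bind Frizzled receptors and the co-receptors LRP5 and LRP6, which keeps β-catenin from being degraded and lets it enter the nucleus, where it activates genes together with transcription factors of the TCF/LEF family. GPR124, the product of *Adgra2*, and RECK hold WNT7A and WNT7B at the surface of endothelial cells and present them to Frizzled, while FZD4 also receives the unrelated ligand Norrin. The hyaloid vessels nourish the lens and vitreous body before birth and regress afterwards, and mice without LRP5, FZD4 or WNT7B retain them.

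Single cells were measured by SORT-seq, in which each sorted cell is lysed in a well of its own and its transcripts are tagged with a well barcode and a random unique molecular identifier (UMI), so that molecules can be counted. The *Gpr124* ∆EC/∆EC group (knockout) was a suspension pooled at P6 from 9 floxed mice that carried VECad-Cre-ER T2, and the *Gpr124* fl/fl group (control) a suspension pooled from 7 littermates without Cre. Both groups, of both sexes, carried the floxed *Adgra2* allele (strain B6N.Cg-Adgra2tm1.1Bstc/J) and received tamoxifen daily from P1 to P4. Cre was driven by the VE-cadherin promoter and thus acted in endothelial cells but not in pericytes, and recombination may be incomplete in some cells. Each suspension filled a pair of plates with 384 wells. Plate 1 of each genotype was sorted through a CD31 gate and plate 2 through a PDGFRB gate, with some CD31-gate wells on knockout plate 2.

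The deposited values were estimated UMI counts and were rounded to whole UMIs for sums. Mouse genes received 108059 and 128082 UMIs on control plates 1 and 2, and 51972 and 174645 on knockout plates 1 and 2. Of 1536 wells, 42 held 1000 to 8000 UMIs after the plates were scaled to the highest plate median and had a mitochondrial share under 10%. Among them, 11 were endothelial cells (*Cldn5* without *Pdgfrb*) and 21 were pericytes (*Pdgfrb* without *Cldn5*). The gates and these classes did not coincide: the CD31-gate plate of the control gave 2 endothelial cells and 6 pericytes, its PDGFRB-gate plate 3 of each, knockout plate 1 gave 4 endothelial cells and no pericyte, and knockout plate 2 gave 2 endothelial cells and 12 pericytes. All plates used the same 384 well barcodes, and 10 of the 32 cells share their barcode with a well of at least 1000 UMIs on another plate.

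Genes that define neither class separated them. Per 10000 UMIs, a list of 15 endothelial markers held 92.6 to 149 on the 4 plates with endothelial cells and 9.22 to 9.99 on the 3 plates with pericytes, and a list of 14 pericyte markers took 131 to 208 in pericytes and 6.70 to 36.9 in endothelial cells. The VE-cadherin gene *Cdh5* had 42 UMIs in endothelial cells and 1 in pericytes. Erythroid markers (6 genes, led by *Hba-a2*) were concentrated in the endothelial cells of control plate 2, with 233 UMIs there, 0 on control plate 1, 3 on knockout plate 1 and 0 on knockout plate 2, and 2, 3 and 14 in the pericytes of control plates 1 and 2 and knockout plate 2. Lens, melanocyte, astrocyte and retinal neuron markers had at most 2 UMIs in either class on any plate, and macrophage markers are given with *Lrp6* below because they differed between the same groups of pericytes.

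The depth sets what can be seen. The endothelial cells held 15184 UMIs in the control and 15864 in the knockout, and the pericytes 32109 and 48351. With a count of 0 the true level can reach 2.43, 2.33, 1.15 and 0.763 per 10000, respectively (exact Poisson, 95%). Each genotype was 1 pooled suspension, so no test between genotypes was possible and the intervals cover counting error only. The plates of a genotype come from the same mouse pool but were sorted through different gates. The p-values between cell classes measure only the spread between plates of both genotypes, in which genotype, gate and plate are mixed.

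**Figure D1:**
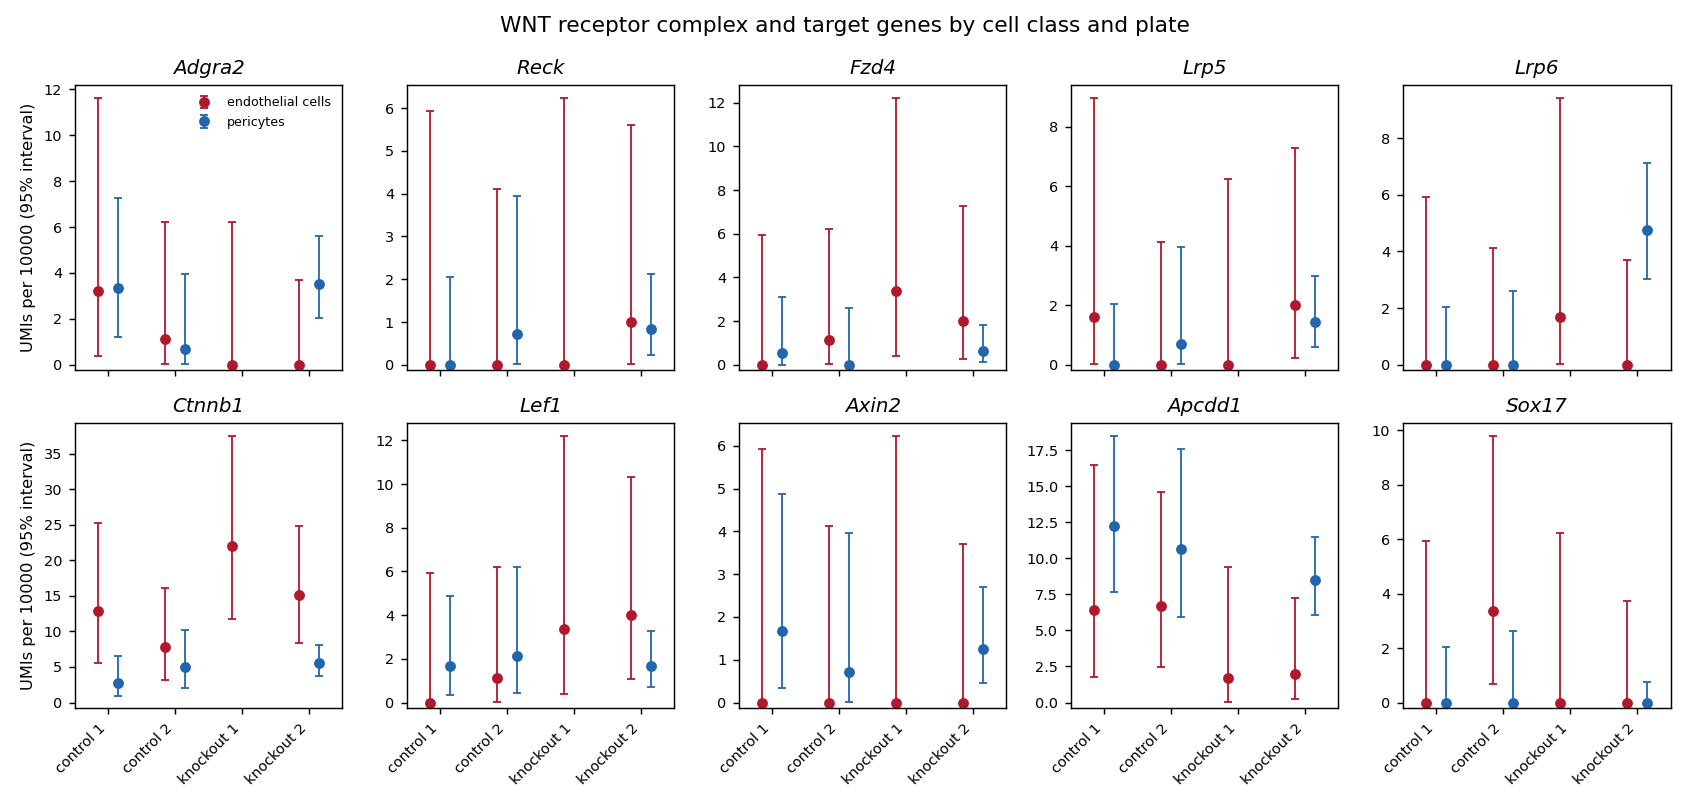
UMIs per 10000 of each gene in endothelial cells (red) and pericytes (blue) of each plate, where control is *Gpr124* fl/fl and knockout is *Gpr124* ∆EC/∆EC; points are pooled counts and bars are exact Poisson 95% intervals. Knockout plate 1 held no pericyte. The *Ctnnb1* points of endothelial cells (7.81 to 22.0) all lie above those of pericytes (2.78 to 5.58), and the *Apcdd1* points of endothelial cells (1.69 to 6.70) all lie below those of pericytes (8.48 to 12.2).

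In pooled counts, *Ctnnb1* was higher in endothelial cells and *Apcdd1* and *Lrp6* in pericytes, while the difference of the other 7 genes was under 2-fold, within counting error or on fewer than 6 UMIs. The receptor complex genes together (*Adgra2*, *Reck*, *Fzd4*, *Lrp5* and *Lrp6*) had 13 UMIs in endothelial cells and 64 in pericytes, or 4.19 (2.23 to 7.16) and 7.95 (6.13 to 10.2) UMIs per 10000. Of the 64, *Adgra2* had 24 and *Lrp6* 23, while *Reck*, *Fzd4* and *Lrp5* had 5, 4 and 8. The endothelial sum includes the knockout cells, in which Cre targets *Adgra2*. The 4 target genes had 23 UMIs in endothelial cells and 102 in pericytes, or 7.41 (4.70 to 11.1) and 12.7 (10.3 to 15.4) per 10000, of which *Apcdd1* alone had 13 and 78 UMIs. Nearly all of the receptor excess came from knockout plate 2, where the pericytes had 11.2 (8.39 to 14.6) UMIs of the complex per 10000, against 3.89 (1.56 to 8.01) and 2.13 (0.439 to 6.22) on control plates 1 and 2. The endothelial cells had 4.82, 2.23, 5.07 and 5.03 UMIs of the complex per 10000 on control plates 1 and 2 and knockout plates 1 and 2, within the range of the pericytes.

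By pooled counts, 3 of the 9 genes with at least 6 UMIs differed between the classes by at least 2-fold with an exact interval that excluded equal levels: *Lrp6* and *Apcdd1* toward pericytes and *Ctnnb1* toward endothelial cells. Over all genes the same rule took 16% of 4403, 7.52% toward pericytes and 8.52% toward endothelial cells. Within the control the rule took 1 of 4 (*Ctnnb1*), beside 16.5% of 2039 genes, and within the knockout 4 of 8 (*Adgra2*, *Lrp6*, *Ctnnb1* and *Apcdd1*), beside 13.6% of 2753. A ratio against 0 UMIs counted as at least 2-fold. *Adgra2* passed in this way, although its ratio to 3 UMIs was only 1.86 (exact limit 1.35). It is also the gene that Cre targets in knockout endothelial cells, so its place in this count is not independent of the design. The class difference of *Lrp6* rests on knockout plate 2 alone, since the pericytes of the other plates had 0 UMIs of it.

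The deleted gene came first among the co-receptors. *Adgra2* (ENSMUSG00000031486, chromosome 8, 27085583 to 27123436 of GRCm38) had 2, 1, 0 and 0 UMIs in the endothelial cells of control plates 1 and 2 and knockout plates 1 and 2. In pericytes it had 6 and 1 UMIs on the control plates and 17 on knockout plate 2, or 3.33, 0.709 and 3.52 UMIs per 10000. The endothelial counts of both genotypes were at or under 3 UMIs, and the pericyte levels overlapped between genotypes. These UMIs do not check the deletion, because SORT-seq reads lie near the 3′ end and a message without the floxed part can still be counted.

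Within the knockout, *Adgra2* was higher in pericytes than in endothelial cells by at least 1.35-fold (17 against 0 UMIs, exact limit), or 1.86-fold against 3 UMIs. Within the control it had 2.18 (0.877 to 4.49) UMIs per 10000 in pericytes and 1.98 (0.407 to 5.77) in endothelial cells, a log2 ratio of 0.14 (−1.99 to 2.73). The difference between these contrasts was not tested. A UMI of *Adgra2* was found in 58.3% of knockout pericytes and 55.6% of control pericytes. With every cell thinned to 1000 UMIs, the expected shares were 26.5% and 22.1%, close to each other at either depth. In control endothelial cells the shares were 40.0% as counted and 16.2% thinned.

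*Reck* encodes the membrane-anchored partner that GPR124 needs to respond to WNT7. It had 1 UMI in the 11 endothelial cells, on knockout plate 2, and 5 UMIs in the 21 pericytes (0, 1 and 4 on control plates 1 and 2 and knockout plate 2). The levels, 0.322 (0.00815 to 1.80) and 0.621 (0.202 to 1.45) UMIs per 10000, overlapped. Both co-receptors were seen together in 0 endothelial cells and in 1 pericyte, although *Adgra2* was seen in 2 endothelial cells and 12 pericytes.

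**Figure D2:**
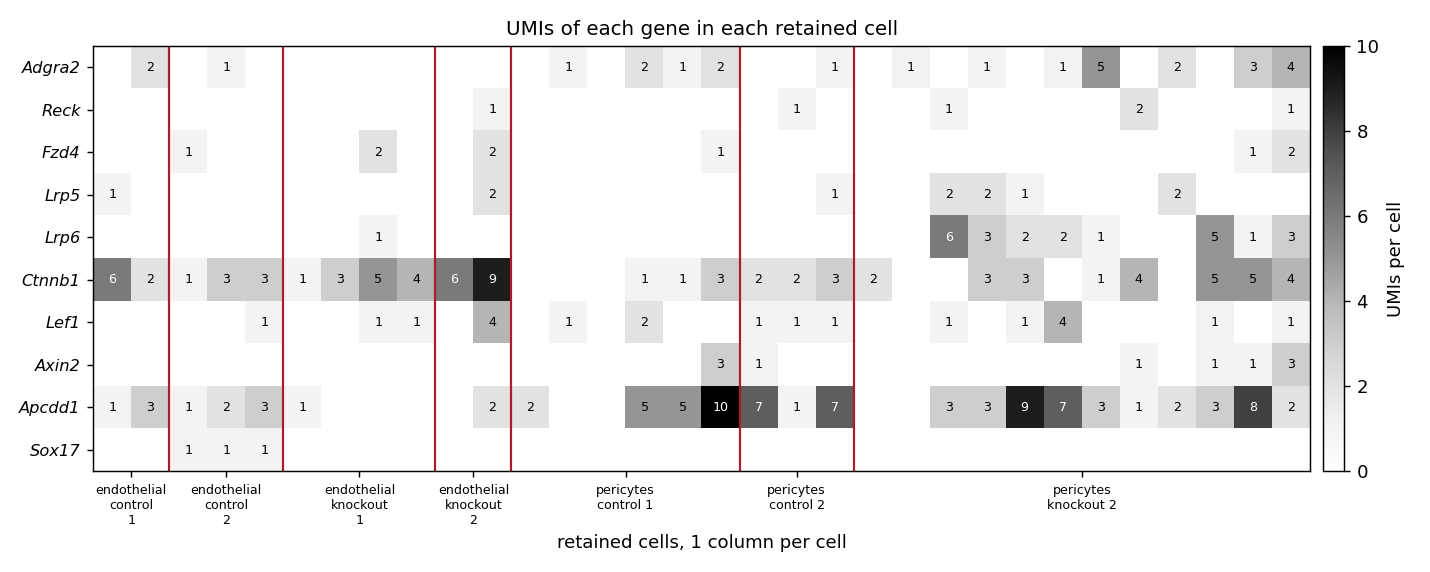
UMIs of each gene in each of the 32 endothelial cells and pericytes, 1 column per cell, ordered by class and plate and, within a plate, from the shallowest to the deepest cell. Blank squares are 0. *Ctnnb1* fills all 11 endothelial columns, *Lrp6* fills 8 pericyte columns of knockout plate 2 and none of the control, and *Sox17* is limited to 3 endothelial cells of control plate 2.

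Among the receptors, *Fzd4*, which encodes the Frizzled protein that binds Norrin, had 0, 1, 2 and 2 UMIs in the endothelial cells of control plates 1 and 2 and knockout plates 1 and 2. In pericytes it had 1, 0 and 3 UMIs on control plates 1 and 2 and knockout plate 2. Pooled, these are 1.61 (0.523 to 3.76) UMIs per 10000 in endothelial cells and 0.497 (0.136 to 1.27) in pericytes. The plates of the classes overlapped, and the interval of the log2 ratio of pericytes to endothelial cells reached from −4.03 to 0.52.

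*Lrp5*, 1 of the pair of LDL receptor relatives that complete the receptor, had 1, 0, 0 and 2 UMIs in endothelial cells and 0, 1 and 7 in pericytes, with the plates in the same order. Its pooled levels, 0.966 (0.199 to 2.82) and 0.994 (0.429 to 1.96) UMIs per 10000, were nearly equal. Of the 8 pericyte UMIs, 7 lay on knockout plate 2, where 4 of 12 pericytes had the transcript, but with a mitochondrial share under 5% the knockout pericytes had 0 UMIs and the control 1.

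*Lrp6* (ENSMUSG00000030201, chromosome 6, 134446476 to 134566965, minus strand), the other LDL receptor relative, had 0, 0, 1 and 0 UMIs in endothelial cells and 0, 0 and 23 in pericytes, again in that order. The knockout pericytes stood apart from every other group: 8 of 12 had the transcript, with 1 to 6 UMIs each, against 0 of 9 control pericytes. These shares, 66.7% and 0%, count cells with a UMI. The cells of a genotype come from 1 pool, and a cell without a UMI may still hold the transcript. Thinned to 1000 UMIs, the knockout share was 33.1%. In pooled counts *Lrp6* was at least 3.82-fold higher in knockout than in control pericytes (23 against 0 UMIs, exact limit). Against 3 UMIs over the control group the ratio was 5.09. The exact limit fell to 1.68 without control plate 1, to 2.14 without control plate 2 and to 1.91 with a mitochondrial share under 5%. It was the only 1 of the 7 genes with at least 6 pericyte UMIs that passed this rule of 2-fold and beyond counting error, which took 5.3% of 3304 genes in pericytes, 2.21% toward the knockout and 3.09% toward the control. All knockout pericytes came from a single plate, so plate and genotype cannot be told apart.

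The absence of *Lrp6* from the control cells did not extend to the other wells of the same plates. Wells below 1000 UMIs, whose content of intact cells was not measured, had 27 and 25 UMIs of *Lrp6* on control plates 1 and 2 and 11 and 25 on knockout plates 1 and 2, or 4.28, 3.84, 3.01 and 4.10 per 10000. These 4 levels overlapped, and the 88 UMIs were spread over 83 wells. The endothelial cells and pericytes of the control together had 0 UMIs of *Lrp6* in 47293. This was at least 5.02-fold lower (exact limit) than the 52 UMIs in 128172 of the shallow control wells, and 6.40-fold lower with 3 UMIs in place of 0. Those of the knockout had 3.74 (2.39 to 5.56) per 10000, beside 3.69 (2.59 to 5.12) in the shallow knockout wells. Of 634 genes with at least 30 UMIs in the shallow control wells, 8 were at 0 in the control cells of these classes, *Lrp6* among them.

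Control wells that the class rule or the upper limit left out did hold *Lrp6*: 3 UMIs in the 3 wells with both markers, 1 in the 2 retained wells with neither marker, 4 in the 3 wells with *Pdgfrb* above 8000 UMIs and 1 in the well above 8000 UMIs with neither marker. With every *Pdgfrb* well of at least 1000 UMIs, a selection made after the values were seen, the control had 7 UMIs in 15 wells and the knockout 36 in 17, or 0.938 (0.377 to 1.93) and 4.04 (2.83 to 5.60) per 10000. The log2 ratio of control to knockout was then −2.11 (−3.52 to −0.92). Among pericytes, macrophage markers were also found only in the knockout (20 UMIs, 10 of 15 genes, most of *C1qc* with 5 and none of *Csf1r*, *Mrc1*, *Cd68*, *Tyrobp* or *Cx3cr1*, against 0 in the control), while the endothelial cells had 4 UMIs of them. The mitochondrial shares of knockout and control pericytes overlapped (3.67 to 8.85% and 2.27 to 9.10%). The part of these in the *Lrp6* count was not tested.

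**Figure D3:**
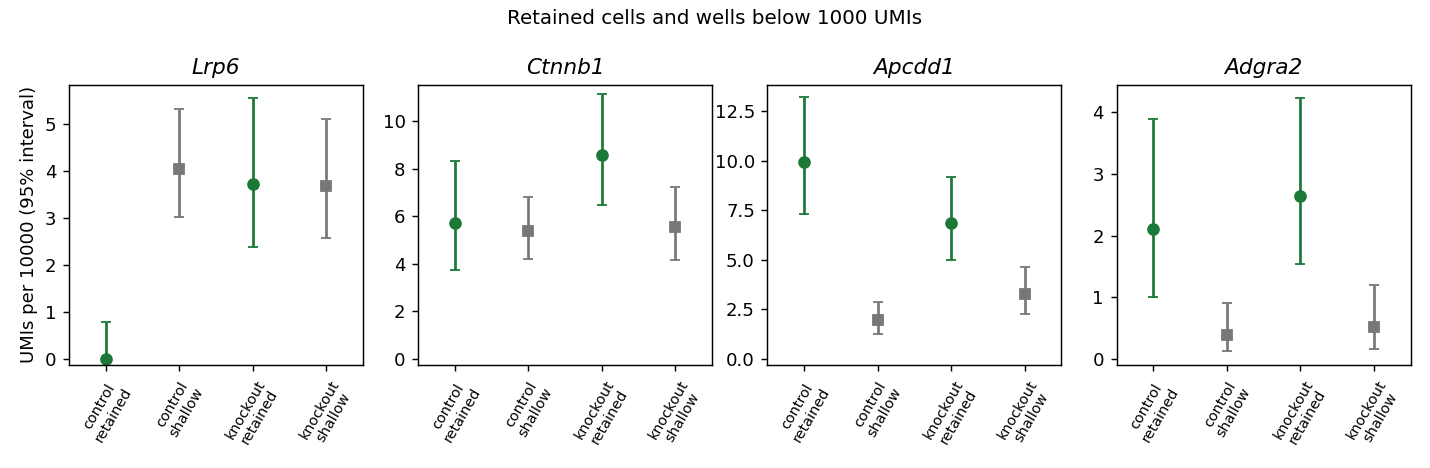
UMIs per 10000 of *Lrp6*, *Ctnnb1*, *Apcdd1* and *Adgra2* in the retained endothelial cells and pericytes together (green circles) and in all wells below 1000 UMIs (gray squares) of each genotype, with exact Poisson 95% intervals. The retained control cells are at 0 for *Lrp6*, while the other 3 *Lrp6* values lie between 3.69 and 4.06; retained cells lie above shallow wells for *Apcdd1* and *Adgra2* in both genotypes.

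The transducer β-catenin, encoded by *Ctnnb1* (ENSMUSG00000006932, chromosome 9, 120929216 to 120960507), also joins cadherins to actin at cell junctions. Endothelial cells had 12.9, 7.81, 22.0 and 15.1 UMIs of *Ctnnb1* per 10000 on control plates 1 and 2 and knockout plates 1 and 2 (8, 7, 13 and 15 UMIs), and pericytes had 2.78, 4.97 and 5.58 on control plates 1 and 2 and knockout plate 2 (5, 7 and 27 UMIs). All 4 endothelial values lay above all 3 pericyte values, and the transcript was seen in 11 of 11 endothelial cells and 14 of 21 pericytes. Thinned to 1000 UMIs, these shares were 79.6% and 33.5%.

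*Ctnnb1* was the only 1 of the 10 genes that passed the expression filter of the test over plates and classes (edgeR quasi-likelihood, Benjamini-Hochberg over 148 genes). It passed only through the endothelial sums, where it is high, so a gene that entered this way was likely to differ. Its log2 fold change, pericytes minus endothelial cells, was −1.17 (standard error 0.47, adjusted p = 0.0400), in a comparison that called 34.5% of the genes tested and 10.1% of them toward endothelial cells. The call did not hold in 7 of the 12 alternatives that tested it, among them the fit without the filter (log2 fold change −0.76, adjusted p = 0.572), the plate as a block (−0.98, adjusted p = 0.167), the fits without control plate 1 (−0.97, adjusted p = 0.216) and without knockout plate 2 (−1.37, adjusted p = 0.199), and over all alternatives the adjusted p ran from 0.00713 to 0.572. On data made with known changes this test also called more unchanged genes than its nominal rate allows. The test called 36 genes higher in pericytes and 15 higher in endothelial cells. With library sizes in place of TMM factors, which moved the median log2 fold change of the genes by −0.33, it called 25 and 40.

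By genotype, *Ctnnb1* had 9.88 (5.53 to 16.3) UMIs per 10000 in control and 17.7 (11.7 to 25.5) in knockout endothelial cells, and 3.74 (1.93 to 6.53) and 5.58 (3.68 to 8.12) in pericytes. The log2 ratios of control to knockout, −0.84 (−1.85 to 0.12) and −0.58 (−1.70 to 0.45), were not beyond counting error. The class difference was similar in size within each genotype, with log2 ratios of pericytes to endothelial cells of −1.40 (−2.63 to −0.21) in the control and −1.66 (−2.48 to −0.84) in the knockout. Shallow wells had 5.45 UMIs of *Ctnnb1* per 10000, near the pericyte levels and below each endothelial value. Over the 7 sums of a class on a plate, the genes most like *Ctnnb1* by Pearson r of log2(UMIs per 10000 + 1) were *Sptbn1* (0.906), *Col18a1* (0.900) and *Tcf4* (0.891). Because these sums hold both classes, any gene that differs between the classes can reach a high r, so r does not show shared regulation.

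Of the target genes, *Apcdd1* had the most UMIs. It encodes a membrane protein that binds WNT and LRP5 and dampens the signal (ENSMUSG00000071847, chromosome 18, 62922231 to 62961179). Endothelial cells had 6.43, 6.70, 1.69 and 2.01 UMIs of *Apcdd1* per 10000 on control plates 1 and 2 and knockout plates 1 and 2 (4, 6, 1 and 2 UMIs), and pericytes had 12.2, 10.6 and 8.48 on control plates 1 and 2 and knockout plate 2 (22, 15 and 41 UMIs). All pericyte values lay above all endothelial values, and within each class the control plates lay above the knockout plates. The pericyte excess was a log2 ratio of 1.21 (0.35 to 2.18) in pooled counts, 0.81 (−0.23 to 1.98) within the control, which is not beyond counting error, and 2.16 (0.52 to 4.50) within the knockout on 3 endothelial UMIs, and *Apcdd1* was seen in 17 of 21 pericytes and 7 of 11 endothelial cells.

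*Apcdd1* did not pass the expression filter. In the fit without that filter over 10829 genes, where the median gene had a log2 fold change of 1.15 and 2.2% of genes were called, it was the only 1 of the 10 that was called (2.05, standard error 0.58, adjusted p = 0.0236). The adjusted p of the other 9 in that fit lay between 0.142 for *Lrp6* and 0.754 for *Lef1*. In the filtered alternatives that tested it, *Apcdd1* had a log2 fold change of 1.45 without knockout plate 1 (adjusted p = 0.0203), 1.72 without scaling of the plates (adjusted p = 0.00425) and 1.24 within the control (adjusted p = 0.122).

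By genotype, *Apcdd1* was seen in 5 of 5 control endothelial cells with 10 UMIs and in 2 of 6 knockout endothelial cells with 3 UMIs. The shares, 100% and 33.3%, became 53.7% and 19.6% when cells were thinned to 1000 UMIs. The levels were 6.59 (3.16 to 12.1) and 1.89 (0.390 to 5.53) UMIs per 10000, a log2 ratio of control to knockout of 1.80 (−0.16 to 4.30), so the difference was not beyond counting error. None of the 3 genes with at least 6 endothelial UMIs (*Ctnnb1*, *Lef1* and *Apcdd1*) passed the rule of 2-fold and beyond counting error, which took 9.45% of 1196 genes in endothelial cells, 5.69% toward the knockout.

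In pericytes, which keep *Adgra2* in both groups, *Apcdd1* had 11.5 (8.11 to 15.9) UMIs per 10000 in the control and 8.48 (6.09 to 11.5) in the knockout, a log2 ratio of 0.44 (−0.24 to 1.12). With no upper limit on UMIs this order turned (a difference of −1.77 UMIs per 10000, control minus knockout), and with a mitochondrial share under 5% it widened to 7.90. Shallow wells had 2.53 UMIs of *Apcdd1* per 10000, below the pericytes of every plate. The genes most like *Apcdd1* over the 7 sums were *F2r* (r = 0.888), *Gnas* (0.873) and *Itga1* (0.865), all called higher in pericytes, so r here follows the class difference.

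*Lef1* encodes a TCF/LEF factor that is itself raised by β-catenin. It had 0, 1, 2 and 4 UMIs in the endothelial cells of control plates 1 and 2 and knockout plates 1 and 2, and 3, 3 and 8 in the pericytes of control plates 1 and 2 and knockout plate 2. In UMIs per 10000 the pericytes lay above the endothelial cells on each control plate and below them on knockout plate 2. The pooled class levels, 2.25 (0.907 to 4.65) in endothelial cells and 1.74 (0.951 to 2.92) in pericytes, overlapped.

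In endothelial cells, *Lef1* had 0.659 (0.0167 to 3.67) UMIs per 10000 in the control and 3.78 (1.39 to 8.23) in the knockout. Both knockout plates (3.38 and 4.02) lay above both control plates (0 and 1.12), but 4 of the 6 knockout UMIs were in the deepest cell, and the log2 ratio of control to knockout was −2.52 (−8.05 to 0.52). Without the deepest cell of each genotype the counts were 0 and 2. In pericytes the log2 ratio was 0.18 (−1.63 to 1.89), and no difference between genotypes was detectable at this depth in either class.

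*Axin2*, a scaffold of the complex that degrades β-catenin and a feedback target of the pathway, was counted in pericytes and in no endothelial cell. The pericytes had 3, 1 and 6 UMIs on control plates 1 and 2 and knockout plate 2, in 2 of 9 control and 4 of 12 knockout cells, and the endothelial cells had 0 on each plate. Shallow wells had 0 UMIs of *Axin2* in 225601. The endothelial cells allow up to 1.19 UMIs per 10000, and the pericytes had 1.24 (0.596 to 2.29), so the classes did not differ beyond counting error. Between genotypes the pericyte levels were nearly equal, 1.25 in the control and 1.24 in the knockout.

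*Sox17*, a transcription factor of arterial endothelium, had 3 UMIs in all, 1 in each of the 3 endothelial cells of control plate 2, and 0 in pericytes, which allows up to 0.458 UMIs per 10000 there. The endothelial cells of the other 3 plates had 0. Together these 3 cells held the 233 erythroid UMIs given above, whose part in this was not tested. In the shallow wells *Sox17* had 1 and 4 UMIs on control plates 1 and 2 and 0 on each knockout plate, and the retained knockout wells with neither marker had 1 UMI.

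Set beside the shallow wells, *Adgra2* and *Apcdd1* were higher in the retained cells of both classes pooled, in either genotype. Pericytes carried this in the knockout, where the endothelial cells had 0 UMIs of *Adgra2* and 1.89 of *Apcdd1* per 10000, the latter below the 3.28 of the shallow knockout wells. The log2 ratios of retained cells to shallow wells were 2.44 (0.76 to 4.34) and 2.37 (0.87 to 4.16) for *Adgra2*, and 2.35 (1.62 to 3.11) and 1.06 (0.37 to 1.77) for *Apcdd1*, control first. *Axin2* was higher in retained cells by at least 1.79-fold in the knockout (6 UMIs against 0, exact limit), or 3.03-fold against 3 UMIs. The control had 4 UMIs against 0, fewer than the 6 that the rule asks for. For *Lrp5* and *Lef1* the ratio was beyond counting error in the knockout and not in the control, and the difference between genotypes was not tested. For *Fzd4* and *Reck* the ratio was within counting error in both genotypes, so their few UMIs in retained cells were not detectably above that level.

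Promoter windows were read for the letters that TCF/LEF factors bind, CTTTG followed by 2 bases that are each A or T, on both strands. RefSeq windows of GRCm38.p6, from 250 bases before to 50 after a transcript start, were at hand for 5 of the 10 genes. These were *Reck*, *Fzd4*, *Ctnnb1*, *Lef1* and *Axin2*, with 9 windows. Of the 9, 2 held a match, beside 16.9% of 32851 windows. The matches were in the window of the co-receptor gene *Reck* and in 1 window of *Lef1*. The feedback target *Axin2*, with no UMI in the endothelial cells, and a downstream start of *Lef1*, counted in both classes, are shown because both are activated by β-catenin with TCF/LEF. The windows are chr11:108920099-108920398 (plus strand, no match) and chr3:131156044-131156343 (plus strand, with the match in capitals, the reverse complement of CTTTGTA). The other 3 windows of *Lef1*, all upstream of this one, have no match. A match is a description of the letters only.
Axin2: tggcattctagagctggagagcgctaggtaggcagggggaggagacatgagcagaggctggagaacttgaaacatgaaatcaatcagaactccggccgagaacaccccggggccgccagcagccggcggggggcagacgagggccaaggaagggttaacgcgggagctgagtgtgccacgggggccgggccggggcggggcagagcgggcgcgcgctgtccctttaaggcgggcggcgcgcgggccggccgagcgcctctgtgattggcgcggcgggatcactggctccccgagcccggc
Lef1: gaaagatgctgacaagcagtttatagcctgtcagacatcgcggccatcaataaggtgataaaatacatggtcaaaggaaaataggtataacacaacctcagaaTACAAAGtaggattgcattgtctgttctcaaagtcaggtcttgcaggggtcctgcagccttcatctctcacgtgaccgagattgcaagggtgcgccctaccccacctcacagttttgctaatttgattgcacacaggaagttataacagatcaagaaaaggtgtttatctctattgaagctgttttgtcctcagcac

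The wider pathway showed where the remaining components lay. Of 24 genes for WNT ligands, Norrin and R-spondins, 2 had UMIs, *Wnt4* and *Wnt5b*, each with 2 UMIs in knockout pericytes and 0 in the other retained cells of both classes. *Wnt7a* and *Wnt7b*, the ligands that GPR124 and RECK serve, had 0 in both classes (named after their values were seen). Of 22 receptor and co-receptor genes, 17 had UMIs and none passed the expression filter. They had 27 UMIs in endothelial cells and 129 in pericytes, of 31048 and 80460 UMIs in all. By the rule of 2-fold and beyond counting error, *Tspan12* was higher in pericytes (22 against 1 UMIs), as was *Lrp6*. *Fzd6* was higher in endothelial cells (9 against 0 UMIs, at least 5.12-fold by the exact limit, or 7.77-fold against 3 UMIs). *Tspan12* and *Fzd6* were named after their values were seen, and neither was called in the fit without a filter. Of 18 inhibitors and receptor turnover genes, 6 had UMIs, and 18 of their UMIs lay in endothelial cells and 124 in pericytes. In the fit without a filter 2 of the 6 were called higher in pericytes, beside 1.74% of 10829 genes. These were *Apcdd1* and, named after its value was seen, *Dkk3*, a secreted relative of the DKK antagonists (30 UMIs in pericytes and 1 in endothelial cells). *Dkk2* had the most UMIs of those not called, 13 in pericytes and 2 in endothelial cells (log2 ratio 1.33, −0.82 to 4.52).

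All 20 cytoplasmic transducer genes had UMIs, and *Ctnnb1* was the only one tested and called in the filtered comparison. Of the others, *Csnk1a1*, the casein kinase that primes β-catenin for degradation, had the most UMIs, 3.85 per 10000 in pericytes and 4.19 in endothelial cells. Among 19 genes of TCF/LEF factors and nuclear partners, 18 had UMIs and *Tle5* had the most, 2.36 per 10000 in pericytes and 4.83 in endothelial cells (log2 ratio −1.03, −2.09 to 0.05). *Tcf7l1*, a TCF that mostly represses targets, was the only 1 of the 18 nuclear genes called in the fit without a filter. That fit called 1.74% of 10829 genes toward pericytes. *Tcf7l1* had 19 UMIs in pericytes and 0 in endothelial cells (at least 1.80-fold higher by the exact limit, or 2.44-fold against 3 UMIs, named after its value was seen). Its level in the shallow wells, 3.55 UMIs per 10000, was above the 2.36 of pericytes.

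In a list of 28 WNT target genes, 20 had UMIs, 229 in endothelial cells and 202 in pericytes. The list does not mark whether WNT signaling raises or lowers a gene, so these sums do not measure its activity. Some members, such as *Slc2a1* and *Sox17*, are also genes of endothelial identity. The part of cell identity or of WNT signaling in the calls below was not tested. *Slc2a1*, the glucose transporter of barrier endothelium, had 17.7, 23.4, 35.5 and 31.2 UMIs per 10000 in the endothelial cells of control plates 1 and 2 and knockout plates 1 and 2, and 0.555, 0 and 0.207 in the pericytes of control plates 1 and 2 and knockout plate 2. All endothelial values lay above all pericyte values, and *Slc2a1* was the 1 target gene that was tested and called in the filtered comparison (log2 fold change −5.99, standard error 0.63, adjusted p = 8.07e-19, and 1.51e-10 without a filter). It too passed the filter only through the endothelial sums. In the fit without a filter, which called 50 of 10829 genes toward endothelial cells and 188 (1.74%) toward pericytes, 6 target genes were called higher in endothelial cells (*Slc2a1* and, named after their values were seen, *Plvap*, *Spock2*, *Abcb1a*, *Sox18* and *Sox7*) and 1, *Apcdd1*, higher in pericytes, so that *Lef1*, *Axin2* and *Sox17* were among the 13 measured without a call. The targets without a call that had the most UMIs were *Nkd1* and *Ccnd1*, with 30 each. *Nkd1* had 28 UMIs in pericytes and 2 in endothelial cells, a log2 ratio of pericytes to endothelial cells of 2.43 (0.45 to 5.55). *Ccnd1* had 15 UMIs in each class, a log2 ratio of −1.37 (−2.51 to −0.24). Both ratios were beyond counting error, in opposite directions. Of 10 genes of the cadherin and catenin junction, all had UMIs, 129 in endothelial cells and 159 in pericytes. In the fit without a filter, 1 gene of that list was called in each direction, *Cdh5* toward endothelial cells and *Vcl* toward pericytes (44 UMIs in pericytes and 3 in endothelial cells; named after its value was seen). *Ctnna1*, the α-catenin that links β-catenin to actin and the gene with the most UMIs there after *Ctnnb1*, had 3.85 UMIs per 10000 in pericytes and 6.12 in endothelial cells (log2 ratio −0.67, −1.54 to 0.24).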

How the data were processed

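The input was the expected counts (estimated UMI counts) that the authors deposited for each gene in each well, made with STARsolo 2.7.11b on GRCm38 and unscaled. Of the nonzero values, 98.8% were exactly whole as deposited (no tolerance). Because the design assumed whole counts, each value was rounded before summing and testing. Spike-ins were left out of totals. The 10 genes, the pathway and marker lists and the comparisons were chosen with earlier results of these data known. Clusters and doublets were not computed.

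Endothelial cells and pericytes were compared over sums per class and plate, 4 endothelial and 3 pericyte sums, by the edgeR quasi-likelihood F-test after filterByExpr and TMM, with Benjamini-Hochberg adjustment and calls at an adjusted p under 0.05. The R tools were edgeR 4.0.16, DESeq2 1.42.0 (as an alternative), limma 3.58.1 and R 4.3.3. The method was tested on simulated data, where it found most changed genes but called more unchanged genes than the nominal rate. Both classes of a plate come from the same suspension, which pairs them by design. The correlations of their deviations were −0.00078, 0.069 and 0.097 on control plates 1 and 2 and knockout plate 2.

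Between genotypes, UMIs were summed with exact Poisson 95% intervals, and ratios of UMIs per 10000 carry exact conditional binomial intervals. Folds against 0 are exact 95% limits, given beside the ratio to 3 UMIs over the group where the interval excludes equal levels. Shares of cells were also computed with each cell thinned to 1000 UMIs (hypergeometric expectation).

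Named were the 10 genes; from the pathway lists, genes with at least 10 UMIs that were called between classes and, per list, the gene with the most UMIs that was not; and, for each of the 10 genes with at least 30 UMIs, the 3 genes that passed the filter with the highest r. *Wnt7a*, *Wnt7b*, *Tspan12* and *Fzd6* were named outside this rule, after their values were seen. Alternatives were the test, TMM, the filter, the plate as a block, each plate left out, each genotype alone, mitochondrial limits of 5% and 20%, no plate scaling, other UMI limits, classes from marker lists, equal weight per cell, leaving out the deepest cells and values as deposited. The other tools were matplotlib 3.10.9, scipy 1.17.1, numpy 2.4.6, python 3.11.15 and pandas 2.3.3.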

Additional observations from a re-analysis of the deposited data

Results flagged for a closer look

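In the endothelial cells of the 4 plates, 3 genes had UMIs on a single plate, so the gap between the highest plate and the next took the whole range (a ratio of gap to range of 1.0 each). For *Reck* this was knockout plate 2 with 1 UMI, for *Lrp6* knockout plate 1 with 1 UMI, and for *Sox17* control plate 2 with 3 UMIs. For measured values chance flags about 1 in 20 groups, but a gene with 1 UMI always reaches this ratio, so these flags carry little information.

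*Lef1* had class differences of opposite sign in the genotypes, neither of them beyond counting error. Its UMIs per 10000 in pericytes minus those in endothelial cells were 1.67 and 1.01 on control plates 1 and 2 and −2.37 on knockout plate 2, and the knockout value lay below the mean of the control plates by a difference of −3.71. The difference was not tested, and it rests on the 19 UMIs of *Lef1* on these 3 plates. The 4 endothelial UMIs of knockout plate 2 were all in 1 cell. In pooled counts the interval of the log2 ratio of pericytes to endothelial cells ran from −1.54 to 7.03 within the control. Within the knockout that interval ran from −2.91 to 0.61.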

How the results depend on the processing

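Of the 10 genes, 9 did not pass the filter of the main test. The number of the 10 genes called between classes, 1 in the main comparison, was 0 with DESeq2, with the plate as replicate block, within the control, within the knockout, with a mitochondrial share under 5% and with no upper UMI limit, and 0 to 1 when each plate was left out in turn; under the remaining alternatives it was 1, which was *Apcdd1* in place of *Ctnnb1* without a filter, without knockout plate 1 and without plate scaling. With the block, 32 genes were called higher in pericytes and 14 in endothelial cells. Genes higher in pericytes, 36 in the main comparison, numbered 188 without a filter, which tests more genes, and 21 within the knockout. Genes higher in endothelial cells, 15 in the main comparison, numbered 9 with DESeq2, 40 without TMM and 50 without a filter, and 8 to 20 when each plate was left out. For *Ctnnb1*, the log2 fold change stayed negative in every alternative (−1.48 to −0.76), and it did not pass the filter without knockout plate 1, within the control, without plate scaling and with no upper UMI limit. The number of the 10 genes beyond counting error between genotypes in pericytes, 1 in the main comparison, was 2 with a mitochondrial share under 5%, which added *Apcdd1* (34 and 17 UMIs). Counting only alternatives that changed the value, *Lrp6* in pericytes kept its direction between genotypes in 9 of 9 (−4.92 to −3.11 UMIs per 10000, control minus knockout), *Apcdd1* in endothelial cells in 11 of 11 (4.22 to 5.70), *Apcdd1* in pericytes in 9 of 12 and *Axin2* in pericytes in 5 of 12. The causes of these changes were not tested.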
